A study of Mus musculus with 16 samples.

Results

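Mitochondrial DNA carries its own small set of genes, and 37 of the 55487 genes in the deposited count table were those genes, chosen by a GRCm38 symbol that starts with mt-. They were 13 protein genes, 2 ribosomal RNA (rRNA) genes and 22 transfer RNA (tRNA) genes, and each class is described apart. The libraries came from whole liver of wild type C57BL/6J mice aged 12 weeks, with 4 libraries in each of 4 groups: intermittent hypoxia, overlap hypoxia, sustained hypoxia and room air. Per the title of the series, overlap hypoxia combined the intermittent with the sustained exposure, and room air was the unexposed control. The sources used here do not state oxygen levels, length of exposure or hour of collection. The labels number each library but do not name separate animals, so the p-values cover the spread from library to library, which may be technical.

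The mitochondrial genome is transcribed from both of its strands into long precursors, which are cut into messenger, ribosomal and transfer RNAs, and its genes have no introns. Its proteins are core subunits of the respiratory chain, made on ribosomes inside the organelle and joined to subunits that come from nuclear genes. Liver is rich in mitochondria. Pieces of mitochondrial DNA have also been copied into the nuclear chromosomes during evolution, and some of these copies are annotated as pseudogenes.

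The genes lay close together on the mitochondrial DNA, between bases 1 and 15422. On the annotated plus strand lay 12 of the 13 protein genes, both rRNA genes and 14 tRNA genes. The minus strand held mt-Nd6 and 8 tRNA genes. Some neighbours overlap, by 43 bases for mt-Atp8 and mt-Atp6, by 7 bases for mt-Nd4l and mt-Nd4, and by 14 bases for mt-Nd5 and mt-Nd6, which lie on opposite strands. The sources used here do not state whether counting used strand, so reads from such overlaps may have gone to either gene.

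Sequence decides which of these genes can be counted apart from the nuclear genome, so the sequences that matter most for the counts are shown first, from GENCODE M21 on GRCm38, written 5′ to 3′. The mt-Nd4l gene (MT:9877-10173, plus strand) encodes a small membrane subunit of complex I. Its last 3 bases, in capitals, are absent from the transcript of the nuclear pseudogene Gm10222 (chr1:24612407-24612700, minus strand). The other 294 bases are letter for letter the same in both.
mt-Nd4l: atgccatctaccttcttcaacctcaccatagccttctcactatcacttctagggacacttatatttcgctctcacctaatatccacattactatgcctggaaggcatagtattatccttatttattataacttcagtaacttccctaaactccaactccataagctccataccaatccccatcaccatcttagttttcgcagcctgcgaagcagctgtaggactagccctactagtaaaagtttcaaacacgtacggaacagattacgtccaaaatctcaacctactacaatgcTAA
For mt-Nd3 (MT:9459-9806), another complex I subunit gene, and the pseudogene Gm28438 (chr1:24612775-24613119, minus strand), 345 bases aligned with 1 difference. It was T3C, counted from 1 at the first base of mt-Nd3, and the capital marks it in the first 60 bases of each.
mt-Nd3: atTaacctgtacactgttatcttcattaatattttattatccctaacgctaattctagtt
Gm28438: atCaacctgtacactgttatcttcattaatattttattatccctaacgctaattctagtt
The mt-Atp8 gene (MT:7766-7969) encodes a small subunit of complex V, the ATP synthase. It shares no 50-base stretch with a nuclear gene, and the capitals mark the 43 bases that also belong to mt-Atp6.
mt-Atp8: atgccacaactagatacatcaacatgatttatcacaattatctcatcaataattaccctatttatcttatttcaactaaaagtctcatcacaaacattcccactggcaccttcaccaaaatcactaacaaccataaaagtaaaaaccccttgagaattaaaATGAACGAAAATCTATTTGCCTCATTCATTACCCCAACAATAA
The shortest and the longest of the tRNA genes, mt-Ts2 (MT:11613-11671) for a serine tRNA and mt-Tl1 (MT:2676-2750) for a leucine tRNA, are shown because no tRNA gene received a count.
mt-Ts2: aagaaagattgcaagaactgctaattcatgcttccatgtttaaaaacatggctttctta
mt-Tl1: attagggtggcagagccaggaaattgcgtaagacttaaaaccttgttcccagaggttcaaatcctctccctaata

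All 22 tRNA genes were listed at 0 in every library. They are 59 to 75 bases long. None of the 2451 genes of 100 or fewer bases in the table had a count in any library, and the shortest gene with a count was 101 bases long, so the zeros of the tRNA genes cannot be read as a level. The remaining 15 genes, 13 for proteins and 2 for rRNA, had counts in all 16 libraries and passed the filter on low counts.

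A run of 7 pseudogenes on chromosome 1, between bases 24611535 and 24616197, matches mitochondrial genes. The transcripts of Gm28661, Gm10925 and Gm28437 equal the first 681 bases of mt-Co2, 678 bases of mt-Atp6 and 783 bases of mt-Co3 with no difference. Gm29216 matches bases 1054 to 1545 of mt-Co1 with 6 differences in 492 bases. Gm28439 equals the first 876 bases of mt-Nd4 and was listed at 0 in every library, so mt-Nd4 kept all counts of that pair.

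The deposited values are expected counts, in which a read that fits several transcripts is divided among them by an estimate. In every library most of the counts of mt-Co2, mt-Atp6 and mt-Co3 had gone to the nuclear copy. Of the counts of mt-Co3 and Gm28437 together, the copy held 97.3% to 97.8% in intermittent hypoxia, 97.5% to 98.7% in overlap hypoxia, 98.1% to 99.3% in sustained hypoxia and 96.3% to 98.5% in room air. For mt-Co2 and Gm28661 the copy's part was 90.9% to 92.8% in intermittent hypoxia, 90.0% to 95.9% in overlap hypoxia, 89.9% to 93.2% in sustained hypoxia and 90.8% to 94.1% in room air. For both genes the intermittent hypoxia and room air ranges overlap.

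For mt-Co1 and mt-Nd3 the split differed between intermittent hypoxia and room air with no overlap of libraries. Gm29216 held 10.9% to 19.4% of the counts of its pair with mt-Co1 in intermittent hypoxia, 14.4% to 36.2% in overlap hypoxia, 35.2% to 47.4% in sustained hypoxia and 31.6% to 43.2% in room air. Gm28438 held 62.6% to 76.1% of the pair with mt-Nd3 in intermittent hypoxia, 60.5% to 78.8% in overlap hypoxia, 72.6% to 83.7% in sustained hypoxia and 76.6% to 93.6% in room air. For mt-Nd4l and Gm10222 the split varied widely within groups, with 19.0% to 50.5% in the copy in intermittent hypoxia, 2.96% to 68.6% in overlap hypoxia, 1.16% to 53.4% in sustained hypoxia and 29.4% to 71.8% in room air. Changes named below for these 6 genes are therefore given for own counts and for the sum with the copy. The sums for mt-Co1, mt-Co2 and mt-Atp6 also hold counts of other nuclear genes that share a 50-base stretch. Among these are Gm13340 for mt-Co1 and Gm13341 for mt-Co2, both on chromosome 2. With identical sequences, reads from mitochondrial DNA and from chromosome 1 cannot be told apart.

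**Figure D1:**
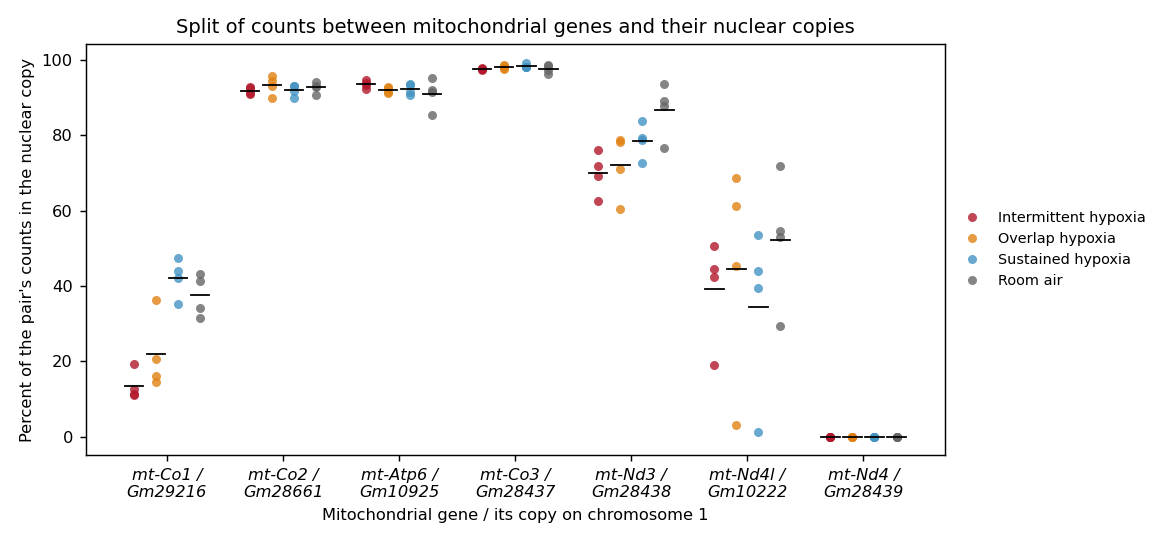
Percent of the counts of each pair (y axis) that the deposited table gives to the nuclear copy, for 7 mitochondrial genes and their copies on chromosome 1 (x axis); points are libraries, lines are group means, n = 4 per group. For mt-Co1 the intermittent hypoxia libraries lie at 10.9% to 19.4%, below the room air libraries at 31.6% to 43.2%, while mt-Co2, mt-Atp6 and mt-Co3 lie near the top in every group.

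The other 8 genes with counts were mt-Rnr1, mt-Rnr2, mt-Nd1, mt-Nd2, mt-Atp8, mt-Nd5, mt-Nd6 and mt-Cytb. At most 8.2% of the 50-base words of any of them occur in a nuclear gene, and none of the words of mt-Rnr1, mt-Nd1, mt-Atp8, mt-Nd6 or mt-Cytb do. No large part of their sequence is thus shared with an annotated nuclear gene. Nuclear sequence outside annotated transcripts was not searched. That includes the stretch of chromosome 1 between Gm28661 and Gm10925, the copies of mt-Co2 and mt-Atp6. On the mitochondrial DNA mt-Atp8 lies between those 2 genes, so a nuclear copy of mt-Atp8 was not tested for there.

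Levels between genes were compared per kilobase of transcript, as CPM (counts scaled to a common library size after TMM) divided by length. With the copies included, mt-Co1 stood highest in intermittent hypoxia at 29730 ± 11059 CPM per kb, followed by mt-Co3 at 25902 ± 9169 CPM per kb (SD, n = 4 each). In room air mt-Co3 stood highest at 14074 ± 4389 CPM per kb, followed by mt-Co1 at 7408 ± 2286 CPM per kb. The ranges of these neighbours overlap in intermittent hypoxia and in room air. Both genes encode core subunits of complex IV, cytochrome c oxidase. Among genes that share no 50-base word with an annotated nuclear gene, mt-Cytb had 9675 ± 3559 CPM per kb in intermittent hypoxia and 2321 ± 1072 CPM per kb in room air. On the same scale mt-Atp8 had 7803 ± 3323 in intermittent hypoxia and 1634 ± 713 in room air, and mt-Nd6 had 2104 ± 1135 in intermittent hypoxia and 787 ± 348 in room air. The lowest level per length with copies in room air was that of mt-Nd4l, at 253 ± 132 CPM per kb, beside mt-Nd5 at 285 ± 130, with overlapping ranges.

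The mitochondrial protein genes took 4.38% to 8.49% of a library's counts in intermittent hypoxia, 2.21% to 6.42% in overlap hypoxia, 1.17% to 1.41% in sustained hypoxia and 0.919% to 2.13% in room air. With the copies on chromosome 1 the shares were 8.03% to 14.0% in intermittent hypoxia, 4.72% to 11.2% in overlap hypoxia, 3.04% to 3.48% in sustained hypoxia and 2.34% to 4.99% in room air. On both measures every intermittent hypoxia library lay above every room air library. The mitochondrial rRNA genes took 0.774% to 3.19% in intermittent hypoxia, 0.253% to 0.762% in overlap hypoxia, 0.134% to 0.382% in sustained hypoxia and 0.260% to 0.911% in room air.

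**Figure D2:**
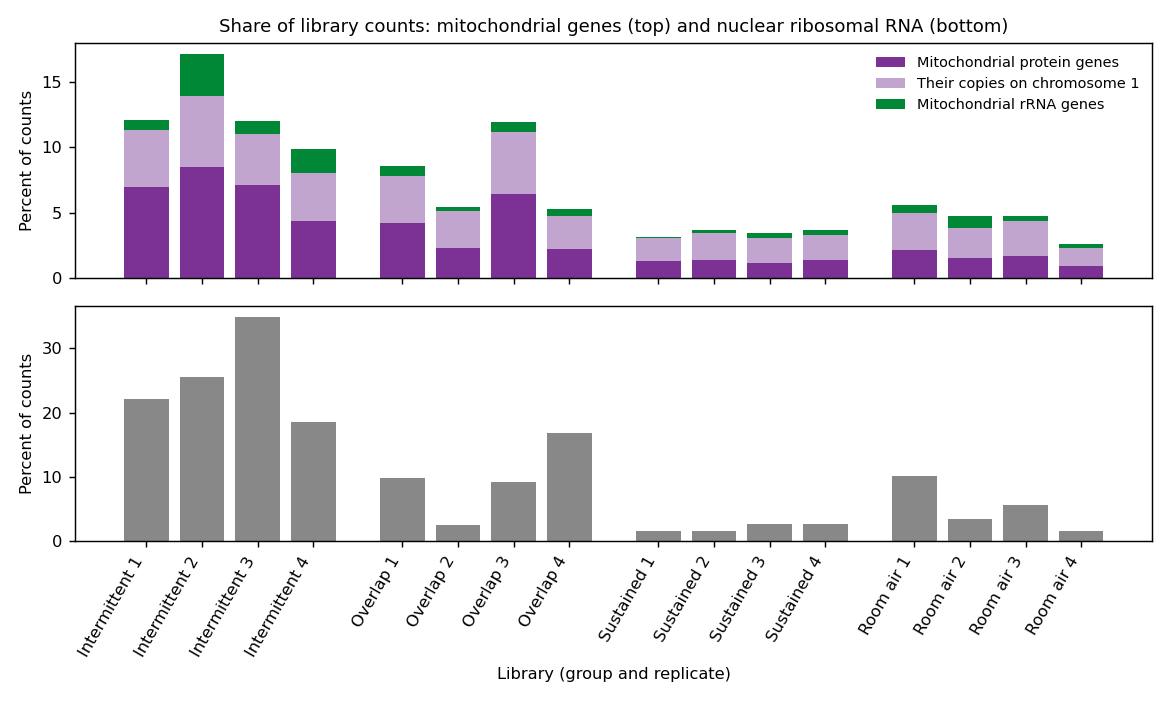
Percent of each library's counts (y axes) in the mitochondrial protein genes, their copies on chromosome 1 and the mitochondrial rRNA genes (top, stacked), and in nuclear ribosomal RNA (bottom), for the 16 libraries in order of group and replicate (x axis). The protein genes with copies reach 8.03% to 14.0% in intermittent hypoxia and 2.34% to 4.99% in room air, and the nuclear ribosomal RNA 18.5% to 34.8% in intermittent hypoxia and 1.57% to 10.2% in room air.

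Totals ran from 10940275 to 64789635 counts per library, the lowest being overlap hypoxia replicate 3. Although the protocol text speaks of retinas, the summed level of 5 hepatocyte markers was 55169 to 88843 CPM over the 16 libraries, and that of 5 photoreceptor markers 2.97 to 10.8 CPM, with Rcvrn at 0 throughout. Of 5 markers of striated muscle and brown fat, Myh4 and Ucp1 were at 0 and the sum stayed at or below 4.26 CPM. Nuclear ribosomal RNA, nearly all from CT010467.1 on chromosome 17, took 18.5% to 34.8% of counts in intermittent hypoxia, 2.53% to 16.8% in overlap hypoxia, 1.55% to 2.77% in sustained hypoxia and 1.57% to 10.2% in room air. All 5 Kupffer cell markers fell in intermittent and likewise in overlap hypoxia when set against room air, with summed levels of 21.9 to 48.0 CPM in intermittent hypoxia, 25.6 to 32.8 CPM in overlap hypoxia, 43.7 to 77.5 CPM in sustained hypoxia and 64.6 to 118 CPM in room air. Of 3 RNAs kept in the nucleus (Malat1, Neat1 and Mlxipl), 2 rose in intermittent hypoxia, with sums of 338.8 to 1378 CPM against 54.8 to 291 CPM in room air. Of the 5 hepatocyte markers 1 fell in intermittent hypoxia. Of 5 markers each of sinusoidal endothelium, stellate cells and erythroid cells, 1, 2 and 0 rose in intermittent hypoxia and 1, 0 and 0 fell. By edgeR at an adjusted p under 0.05, 18.9% of all genes rose and 18.3% fell in intermittent hypoxia against room air. A count of 1 in 5 is near these shares. Against room air 3.41% of all genes rose and 2.89% fell in overlap hypoxia. In overlap hypoxia against room air 2 of the 5 sinusoidal endothelial markers fell, with sums of 25.3 to 48.9 CPM in overlap hypoxia and 60.9 to 77.1 CPM in room air, and 1 of the 3 RNAs kept in the nucleus rose, with sums of 88.6 to 782 CPM in overlap hypoxia. The part of these shifts in the results below was not tested, apart from the share of nuclear ribosomal RNA, and in whole tissue a change in the number of cells of a type cannot be told apart from a change in RNA per cell.

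In intermittent hypoxia against room air the mitochondrial protein genes were higher: 11 of 13 passed the test, all upward, and the median log2 fold change of the 13 was 2.26, against 0.033 over all genes tested. The edgeR quasi-likelihood test at an adjusted p under 0.05 called 37.1% of the 14553 genes tested in this comparison and 18.9% as higher. All 13 estimates were positive. With the copies added, 13 of 13 rose, with a median of 2.06, and again 37.1% of all genes passed. In 11 of the 13 genes every intermittent hypoxia library lay above every room air library on own counts, as did 17.4% of all genes tested.

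**Figure D3:**
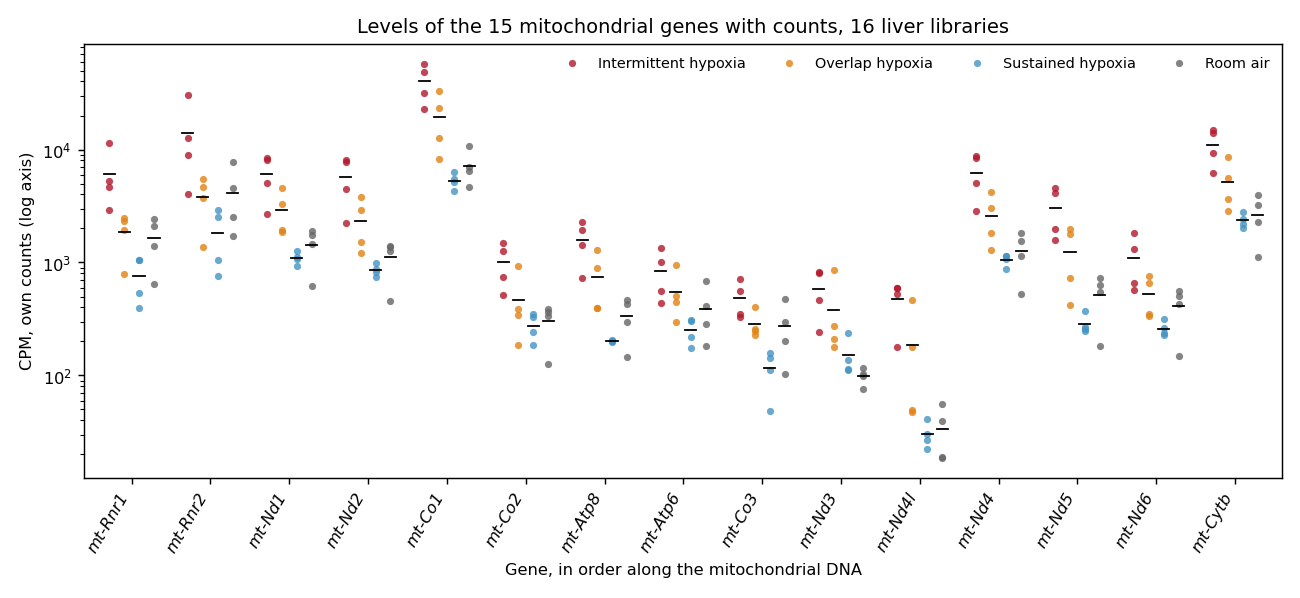
CPM (log y axis) of the 15 mitochondrial genes with counts (x axis, in order along the mitochondrial DNA), own counts without copies; points are libraries, lines are group means, n = 4 per group. The mt-Co1 points lie at 22622 to 57488 CPM in intermittent hypoxia and 4629 to 10709 CPM in room air, and most other genes show the same order of these groups.

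Complex I, the NADH dehydrogenase that feeds electrons into the chain, has 7 mitochondrial subunit genes, and all 7 rose in intermittent hypoxia. The mt-Nd4l gene had 523, 598, 599 and 180 CPM in the 4 intermittent hypoxia libraries, against 56.4, 39.6, 18.6 and 18.9 CPM in room air. It had 180, 49.5, 468 and 47.1 CPM in overlap hypoxia and 22.3, 26.6, 41.3 and 30.6 CPM in sustained hypoxia. The intermittent hypoxia and room air libraries do not overlap, and replicates 1 and 3 of overlap hypoxia lie well above replicates 2 and 4. Its log2 fold change in intermittent hypoxia against room air was 3.83 (SE 0.77, edgeR adjusted p = 0.0020), and 3.38 (SE 0.61, adjusted p = 0.00095) for the sum with Gm10222.

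The mt-Nd3 gene had 467, 815, 826 and 245 CPM in intermittent hypoxia, against 98.6, 102.7, 76.1 and 117 CPM in room air. The values in overlap hypoxia were 273, 209, 867 and 180 CPM, and in sustained hypoxia 112, 136, 240 and 114 CPM. On own counts every intermittent and overlap hypoxia library lay above every room air library, and the sustained hypoxia and room air ranges overlap. With Gm28438 the order changed: the sums were 1516, 2896, 2207 and 1025 CPM in intermittent hypoxia, against 911, 848, 1194 and 501 CPM in room air, and the groups overlap. The log2 fold change was 2.58 (SE 0.54, edgeR adjusted p = 0.0024) on own counts and 1.15 (SE 0.36, adjusted p = 0.023) with the copy.

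Among the larger complex I subunits, mt-Nd5, which lies at the far end of the membrane arm, had 1962, 4561, 4115 and 1569 CPM in intermittent hypoxia, against 724, 626, 544 and 182 CPM in room air. Its log2 fold change was 2.56 (SE 0.55, edgeR adjusted p = 0.0031), and no library of intermittent hypoxia fell into the room air range. The core subunit genes mt-Nd1, mt-Nd2 and mt-Nd4 rose by 2.08, 2.33 and 2.31 on the log2 scale, with adjusted p of 0.0013, 0.0017 and 0.0014. The mt-Nd6 gene, the protein gene of the minus strand, had 566, 1820, 1317 and 664 CPM in intermittent hypoxia, against 556, 503, 425 and 150 CPM in room air. The lowest intermittent and the highest room air library almost touch. Its change was 1.42 (SE 0.44, edgeR adjusted p = 0.023). Without intermittent hypoxia replicate 2 it was 1.06 (adjusted p = 0.077) and no longer passed.

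Cytochrome b, the product of mt-Cytb, is the mitochondrially made subunit of complex III. The gene had 9303, 14789, 14020 and 6162 CPM in intermittent hypoxia and 5598, 3660, 8628 and 2843 CPM in overlap hypoxia. It had 2036, 2417, 2188 and 2774 CPM in sustained hypoxia, against 3965, 3231, 2298 and 1126 CPM in room air. Every intermittent hypoxia library lay above every sustained hypoxia and every room air library, and overlap hypoxia ran across the room air range. Its log2 fold change in intermittent hypoxia against room air was 2.06 (SE 0.41, edgeR adjusted p = 0.0012), and no nuclear gene shares a 50-base word with it.

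Complex IV passes electrons to oxygen, and mt-Co1, mt-Co2 and mt-Co3 encode its catalytic core. The mt-Co1 gene had 31905, 57488, 48050 and 22622 CPM in intermittent hypoxia and 23483, 8175, 33073 and 12672 CPM in overlap hypoxia. It had 5436, 4280, 5110 and 6350 CPM in sustained hypoxia, against 10709, 6419, 6935 and 4629 CPM in room air. All intermittent hypoxia libraries lay above all of room air, and 3 of 4 overlap hypoxia libraries did. The log2 fold change in intermittent hypoxia was 2.48 (SE 0.41, edgeR adjusted p = 0.00031) on own counts and 2.0 (SE 0.34, adjusted p = 0.00027) with its nuclear copies. On its own Gm29216 changed by 0.47 (adjusted p = 0.13).

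The own counts of mt-Co2 rose by 1.72 (SE 0.51, edgeR adjusted p = 0.018), and by 1.53 (SE 0.30) with its nuclear copies. Leaving out intermittent hypoxia replicate 2 took the own-count change of mt-Co2 to 1.47 (adjusted p = 0.054). The mt-Co3 gene did not pass on own counts, at 0.85 (SE 0.46, adjusted p = 0.16), with 350, 717, 559 and 328 CPM in intermittent hypoxia against 203, 300, 479 and 104 CPM in room air. With Gm28437 it had 15332, 30400, 20514 and 14982 CPM in intermittent hypoxia, against 13953, 10937, 13014 and 6231 CPM in room air. On that sum no library overlapped, and the change was 0.88 (SE 0.27, edgeR adjusted p = 0.015). It was the smallest rise among the 13 protein genes with copies.

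The ATP synthase, complex V, contains the products of mt-Atp6 and mt-Atp8, which form part of its membrane portion. The mt-Atp8 gene had 1416, 2277, 1948 and 725 CPM in intermittent hypoxia, against 464, 294, 430 and 145 CPM in room air. It rose by 2.26 on the log2 scale (SE 0.47, edgeR adjusted p = 0.0021). The own counts of mt-Atp6 gave 1.10 (SE 0.47, adjusted p = 0.081), and the sum with its nuclear copies gave 1.5 (SE 0.34, adjusted p = 0.0026). On own counts mt-Atp6 passed without intermittent hypoxia replicate 4, at 1.3 (adjusted p = 0.049), and without room air replicate 3, at 1.51 (adjusted p = 0.027), and mt-Co3 passed without room air replicate 3, at 1.26 (adjusted p = 0.049).

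**Figure D4:**
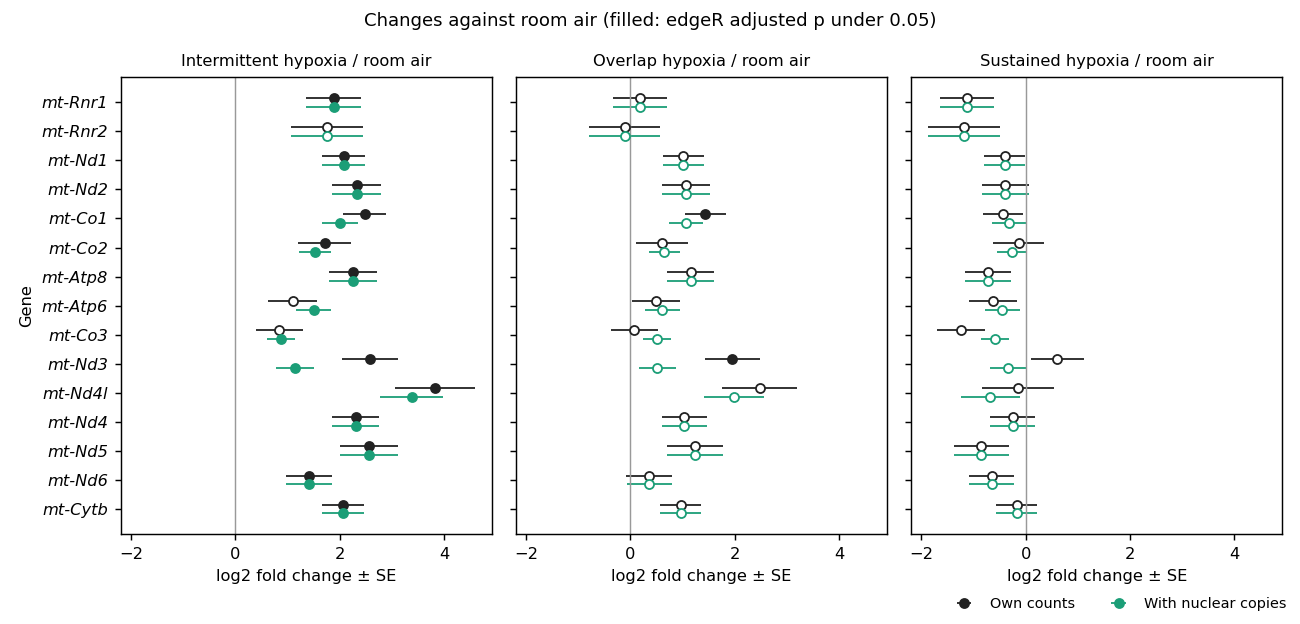
Log2 fold change against room air (x axis) with its standard error for the 15 mitochondrial genes with counts (rows), in intermittent, overlap and sustained hypoxia (panels), for own counts and for counts summed with nuclear copies; filled points have an edgeR adjusted p under 0.05. In intermittent hypoxia 11 of 13 protein genes are filled on own counts and 13 of 13 with copies, in overlap hypoxia 2 of 13 and 0 of 13, and in sustained hypoxia none.

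The mitochondrial rRNAs build the small (mt-Rnr1) and large (mt-Rnr2) subunits of the organelle's ribosome. The mt-Rnr1 gene had 2928, 11498, 5261 and 4617 CPM in intermittent hypoxia and 2328, 797, 2467 and 1922 CPM in overlap hypoxia. It had 395, 539, 1046 and 1044 CPM in sustained hypoxia, against 2104, 2438, 1404 and 644 CPM in room air. Replicate 2 of intermittent hypoxia was the highest of the 16 libraries. In intermittent hypoxia against room air mt-Rnr1 rose by 1.88 (SE 0.54, edgeR adjusted p = 0.015). Without that library the change was 1.38 (adjusted p = 0.052) and no longer passed. The mt-Rnr2 gene had 4024, 30118, 8962 and 12770 CPM in intermittent hypoxia, against 4565, 7687, 2520 and 1725 CPM in room air, and its change of 1.76 (SE 0.70, adjusted p = 0.065) did not pass. It passed with DESeq2, and by edgeR without intermittent hypoxia replicate 1 or without room air replicate 2, with adjusted p of 0.035 to 0.041. Counts of mt-Rnr2 were 1.37 to 2.77 times those of mt-Rnr1 in intermittent hypoxia and 1.79 to 3.15 times in room air, so the ratio of the large to the small rRNA overlapped between groups.

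The mitochondrial genes did not change in proportion to each other. Within the summed counts of the 13 protein genes and their copies, mt-Co3 made up 13.4% to 19.8% in intermittent hypoxia, 19.3% to 28.2% in overlap hypoxia, 22% to 26.9% in sustained hypoxia and 25.8% to 30.8% in room air. The share of mt-Co1 was 35.3% to 37.1% in intermittent hypoxia and 26.7% to 33.0% in room air, and that of mt-Nd4l was 0.481% to 0.706% in intermittent hypoxia and 0.126% to 0.227% in room air. Without overlap between intermittent hypoxia and room air, 5 genes held a larger share (mt-Co1, mt-Nd4l, mt-Nd4, mt-Nd5 and mt-Cytb), 2 a smaller one (mt-Co3 and mt-Nd3), and 6 overlapped. The shares add up to a whole, so a larger share of some genes lowers that of others.

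The ratio of mt-Nd6, on the minus strand, to mt-Cytb, on the plus strand, was 0.0608 to 0.123 in intermittent hypoxia, 0.0756 to 0.134 in overlap hypoxia, 0.108 to 0.114 in sustained hypoxia and 0.133 to 0.185 in room air. All intermittent and sustained hypoxia libraries lay below all room air libraries. The ratio of mt-Nd5 to mt-Cytb overlapped between intermittent hypoxia, at 0.211 to 0.308, and room air, at 0.161 to 0.237. Neither gene of the first ratio shares 50-base words with a nuclear gene. If counting did not use strand, counts of either gene may include reads from its opposite strand, so that ratio need not compare the strands.

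For intermittent hypoxia against room air the same edgeR fit was also run with the share of nuclear ribosomal RNA as a covariate. With it 0 of 13 protein genes and 0 of 2 rRNA genes passed. An unadjusted p under 0.05 was reached by 2 protein genes and 0 rRNA genes, with no share of all genes given for that threshold. The median change of the protein genes was then 1.13, and 9.19% of all genes passed. In that fit mt-Co1 was at 1.3 (adjusted p = 0.11) and mt-Nd3 at 2.16 (adjusted p = 0.18). The share of nuclear ribosomal RNA did not overlap between these groups, so it and the exposure cannot be told apart here.

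Overlap hypoxia against room air gave positive estimates for all 13 protein genes, with a median of 1.03 against 0.027 over all genes, and 2 of 13 passed, both upward. In this comparison 6.29% of all genes passed and 3.41% rose. The 2 were mt-Co1 at 1.43 (SE 0.39, edgeR adjusted p = 0.045) and mt-Nd3 at 1.95 (SE 0.53, adjusted p = 0.046). With copies added 6.28% of all genes passed and 0 of 13 protein genes did. An unadjusted p under 0.05 was reached by 9 of the 13, with no share of all genes given for that threshold. The 2 genes called on own counts were then at 1.06 (adjusted p = 0.063) for mt-Co1 and 0.52 (adjusted p = 0.43) for mt-Nd3. Both calls are near the threshold. Leaving out 1 library ended the call of mt-Co1 in 10 of 16 fits, with adjusted p of 0.055 to 0.14 and log2 changes of 1.04 to 1.44: replicate 1 of intermittent hypoxia, replicates 1 and 3 of overlap hypoxia, any of sustained hypoxia, and replicates 2, 3 and 4 of room air. It ended that of mt-Nd3 in 12 of 16 fits, with adjusted p of 0.050 to 0.14 and log2 changes of 1.16 to 2.08: replicates 1, 2 and 3 of intermittent hypoxia, 1 and 3 of overlap hypoxia, 1, 2 and 4 of sustained hypoxia, and any of room air. The lowest of these changes for both genes came without overlap hypoxia replicate 3.

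Other members in overlap hypoxia had estimates of like size that did not pass: mt-Nd4l at 2.47 (SE 0.72, adjusted p = 0.062; 0.034 to 0.037 without overlap hypoxia replicate 2 or replicate 4; 1.98 with its copy), mt-Nd5 at 1.24 (SE 0.53) and mt-Atp8 at 1.16 (SE 0.45). Replicates 1 and 3 of overlap hypoxia lay above all room air libraries for mt-Cytb, and replicates 2 and 4 did not. The rRNA genes stood at 0.19 (SE 0.52) for mt-Rnr1 and −0.11 (SE 0.68) for mt-Rnr2, and 0 of 2 passed, also at an unadjusted p under 0.05 and with DESeq2 or limma-voom. On own counts only mt-Nd3 of the 13 had all overlap hypoxia libraries above all room air libraries, as did 6.58% of all genes.

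Sustained hypoxia against room air called 0 of 13 protein genes and 0 of 2 rRNA genes by edgeR, DESeq2 and limma-voom, while 0.0481% of all genes passed by edgeR. At an unadjusted p under 0.05 edgeR gave 1 protein gene, mt-Co3, and no rRNA gene. The shares of all genes at that threshold, and those called by DESeq2 and limma-voom, are not given here. The median of the protein genes was −0.40, against −0.0070 over all genes, with own-count estimates between −1.23 for mt-Co3 and 0.61 for mt-Nd3. With copies all 13 estimates were negative, with mt-Co3 at −0.59 and mt-Nd3 at −0.33. The rRNA genes were at −1.12 (SE 0.52) and −1.18 (SE 0.69). The spread in sustained hypoxia differed from gene to gene: mt-Atp8 had 198 to 208 CPM in sustained hypoxia, against 145 to 464 CPM in room air, and mt-Nd3 had 112 to 240 CPM in sustained hypoxia, against 76.1 to 117 CPM in room air.

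The exposures also differ from each other. In intermittent against sustained hypoxia 13 of 13 protein genes and 2 of 2 rRNA genes were higher, with a median of 2.48 for the protein genes, while 38.4% of all genes passed and 19.5% were higher. On own counts the largest of the 13 were mt-Nd4l at 3.98 (SE 0.77, edgeR adjusted p = 0.0017) and mt-Nd5 at 3.41 (SE 0.58, adjusted p = 0.00061), and the smallest was mt-Atp6 at 1.73 (SE 0.48, adjusted p = 0.012). With copies mt-Nd4l was at 4.06 and mt-Atp6 at 1.95, and the smallest of the 13 were mt-Co3 and mt-Nd3, both at 1.47. No library overlapped for any of the 15 genes, as for 17.7% of all genes in the upward direction. With the share of nuclear ribosomal RNA as a covariate, 0 of 13 and 0 of 2 passed, as did 0.0962% of all genes, and that share did not overlap between these groups.

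Overlap against intermittent hypoxia gave 0 of 13 protein genes by edgeR, which called 6.15% of all genes and 2.95% as lower. The median was −1.09, all 13 estimates were negative, and 9 had an unadjusted p under 0.05. DESeq2 called 4 of 13 as lower and 10.7% of all genes, and limma-voom 0 of 13. The shares of all genes at that unadjusted threshold and by limma-voom are not given here, so those counts cannot be set against the whole table. Without overlap hypoxia replicate 3, which has the fewest counts and the highest mt-Co1 of its group, 6 of 13 were lower by edgeR, with 7.52% of all genes called. Without intermittent hypoxia replicate 4, the lowest of its group for mt-Co1, 3 were lower, with 9.51% of all genes called. The mt-Rnr1 gene was lower in every overlap hypoxia library than in any intermittent hypoxia library, as 5.68% of all genes were, at −1.69 (SE 0.53, adjusted p = 0.074). The mt-Rnr2 gene was at −1.87 (SE 0.70, edgeR adjusted p = 0.12), and its libraries overlapped between these groups. Neither rRNA gene passed by edgeR.

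Overlap against sustained hypoxia gave 0 of 13 by edgeR, which called 0.165% of all genes and 0.137% as higher. All 13 estimates were positive, with a median of 1.34, and 12 had an unadjusted p under 0.05. No share of all genes is given for that unadjusted threshold, so the 12 cannot be set against the whole table. DESeq2 called 8 as higher and 6.16% of all genes, and limma-voom 3 and 8.41%. On own counts 10 of 13 had every overlap hypoxia library above every sustained hypoxia library, as did 5.23% of all genes. The mt-Co1 gene came nearest the threshold on own counts, at 1.87 (SE 0.40, edgeR adjusted p = 0.055), and was at 1.38 (SE 0.33, adjusted p = 0.060) with its nuclear copies. Without overlap hypoxia replicate 2, 6 of 13 passed, with 10.3% of all genes called. Without room air replicate 4, which enters only through the scaling, filter and shared spread, 1 did, with 0.633% of all genes called.

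The departure of overlap hypoxia from the sum of the separate changes in sustained and intermittent hypoxia did not pass for any of the 15 genes with edgeR, DESeq2 or limma-voom, also at an unadjusted p under 0.05, while edgeR called 0.454% of all genes. The median for the protein genes was −0.66, with own-count estimates from −1.23 (SE 0.72) for mt-Nd3 to 0.46 (SE 0.64) for mt-Co3. With copies mt-Nd3 was at −0.30 (SE 0.51) and mt-Co3 at 0.22 (SE 0.38), and the lowest estimate was that of mt-Nd4 at −1.03 (SE 0.61). These standard errors are as large as many of the estimates. Comparisons against room air share the same 4 control libraries.

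Most nuclear partners of these genes fell or did not pass. Of 70 nuclear genes for subunits of complexes I, III, IV and V, 1 rose and 32 fell in intermittent hypoxia against room air, with a median of −0.33, while 18.9% of all genes rose and 18.3% fell. In overlap hypoxia 0 rose and 4 fell, while 3.41% and 2.89% of all genes did, and in sustained hypoxia 0 passed by edgeR. By complex, 15 of 36 nuclear complex I genes, 5 of 9 of complex III, 4 of 11 of complex IV and 8 of 14 of complex V fell in intermittent hypoxia. With copies, the mitochondrial genes of the same complexes had medians of 2.31, 2.06, 1.53 and 1.88.

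**Figure D5:**
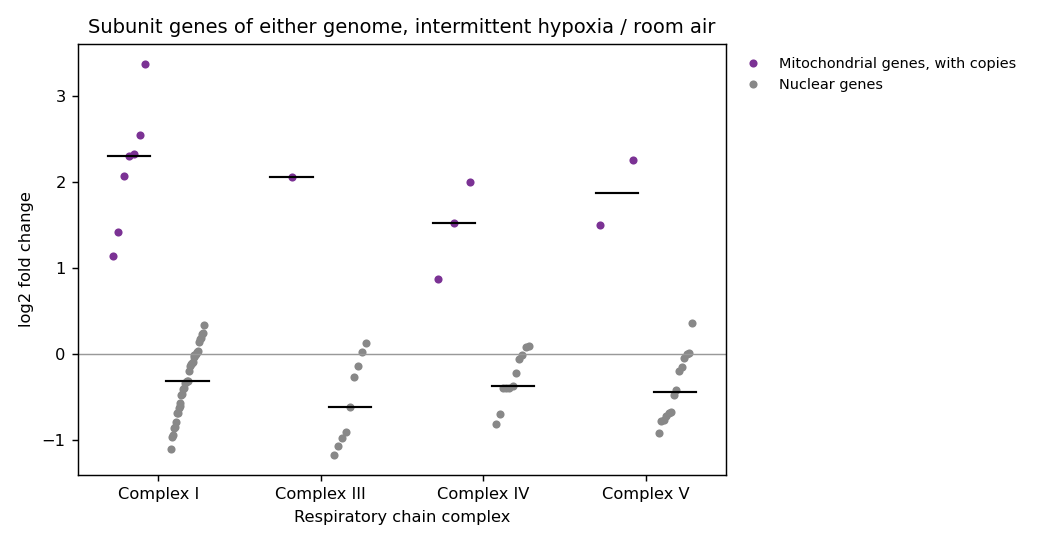
Log2 fold change in intermittent hypoxia against room air (y axis) of mitochondrial genes with copies and of nuclear genes for subunits of complexes I, III, IV and V (x axis); points are genes, lines are medians. The mitochondrial genes lie between 0.88 and 3.38, and the nuclear medians at −0.31, −0.62, −0.37 and −0.45.

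Ndufv1, the complex I subunit that takes up electrons from NADH, averaged 92.2 ± 15.9 CPM in intermittent hypoxia and 177 ± 25.7 CPM in room air (SD, n = 4 each), a log2 change of −0.94 (SE 0.15, edgeR adjusted p = 9.0e-05). Uqcrc2, a core protein of complex III, was at −0.97 and Cox4i1, a complex IV subunit, at −0.81. Atp5b, the catalytic beta subunit of the ATP synthase, was at −0.92. Atp5g1, a gene for the membrane ring subunit, was the nuclear subunit gene that rose, at 0.37 (SE 0.11, adjusted p = 0.016). Its relatives did not rise, with Atp5g2 at −0.04 (edgeR adjusted p = 0.92) and Atp5g3 at −0.73 (edgeR adjusted p = 0.00055).

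Of 78 genes for proteins of the mitochondrial ribosome, 3 rose and 56 fell in intermittent hypoxia, and 2 rose and 14 fell in overlap hypoxia. Over all genes tested 18.9% rose and 18.3% fell in intermittent hypoxia, and 3.41% rose and 2.89% fell in overlap hypoxia. Mrpl28 was at −1.21 in intermittent and −0.73 in overlap hypoxia, while Mrps15 was at 0.63 in intermittent and 0.51 in overlap hypoxia. Of 20 mitochondrial aminoacyl-tRNA synthetase genes, which load the tRNAs, 5 rose and 7 fell in intermittent hypoxia, and 1 rose in overlap hypoxia. The share that rose in intermittent hypoxia is near the 18.9% of all genes, and the share that fell is above the 18.3% of all genes. Aars2, for alanine, rose by 0.86 and Nars2, for asparagine, fell by 0.77. Lars2, for leucine, was at 43496 ± 16491 CPM in intermittent hypoxia and 14942 ± 7540 CPM in room air (log2 1.54, edgeR adjusted p = 0.0050). Aars2 averaged 7.10 CPM in intermittent hypoxia. Lars2 shares no exact 50-base word with CT010467.1 or the mitochondrial rRNA genes. Shorter or inexact likeness, and likeness to other ribosomal RNA, was not searched. Whether the counts of Lars2 came from its own messenger RNA was not tested.

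Of 21 genes for transcription and replication of mitochondrial DNA, 3 rose and 6 fell in intermittent hypoxia, where 18.9% of all genes rose and 18.3% fell, and 1 rose and 1 fell in overlap hypoxia, where 3.41% and 2.89% did. The shares that rose, and the share that fell in overlap hypoxia, are near those of all genes. The share that fell in intermittent hypoxia was above that of all genes, on a list of only 21. Polrmt, the RNA polymerase of mitochondria, had 8.46 ± 2.55 CPM in intermittent hypoxia and 5.03 ± 0.96 CPM in room air (log2 0.74, SE 0.21, edgeR adjusted p = 0.0078). Tfam, which packages mitochondrial DNA and starts its transcription, had 23.5 ± 2.82 CPM in intermittent hypoxia and 38.3 ± 2.94 CPM in room air and fell by 0.70 (adjusted p = 0.00023). It also fell by 0.58 in overlap hypoxia (adjusted p = 0.012) and was at −0.11 in sustained hypoxia. Tefm, the elongation factor of that polymerase, fell by 1.64 in intermittent hypoxia, and Top1mt, a mitochondrial topoisomerase, rose by 0.52.

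Of 25 genes for processing and stability of mitochondrial RNA, 2 rose and 11 fell in intermittent hypoxia, against 18.9% and 18.3% of all genes, and 1 rose and 1 fell in overlap hypoxia, against 3.41% and 2.89% of all genes. Fastk, which in mammals helps to maintain the mt-Nd6 messenger RNA, rose by 1.04 in intermittent hypoxia and by 0.76 in overlap hypoxia, and Fastkd2, which binds mitochondrial RNAs, fell by 0.97 in intermittent and 0.56 in overlap hypoxia. Lrpprc, which stabilises mitochondrial messenger RNAs, was at −0.08 (SE 0.13, adjusted p = 0.64) in intermittent hypoxia. Of 8 tested genes for biogenesis of mitochondria 2 rose in intermittent hypoxia, Ppargc1a at 0.79 and Pprc1 at 0.81, and none passed in overlap hypoxia. That is near the share of all genes that rose in intermittent hypoxia, 18.9%. The median log2 change in intermittent hypoxia was −0.56 for the ribosomal proteins, −0.32 for the synthetases, −0.19 for transcription and replication, −0.39 for RNA processing and 0.0050 for biogenesis, against 0.033 over all genes tested. In sustained hypoxia against room air edgeR called 0 of these 222 nuclear genes, 16 having an unadjusted p under 0.05, while DESeq2 called 1 and limma-voom 2. Of all genes tested, edgeR called 0.0481% in that comparison. The shares of all genes behind the other 3 counts are not given here, so those counts cannot be set against the whole table.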

How the data were processed

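RNA was measured in 16 libraries of whole liver, made with an Illumina TruSeq RNA kit per the labels' protocols. The deposited values are expected counts of genes, estimated by the authors with RSEM after alignment with Bowtie 1.3.0 to GRCm38, per the submitters' processing notes; 49.3% of the values above 0 are not whole at a tolerance of 0.005. Selection of polyadenylated RNA, strand, read length and annotation release: not given in the sources used here. Symbols, lengths, positions and sequences were matched by gene ID to GENCODE M21 (GRCm38), which covered 55227 of 55487 genes.

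Counts were rounded, filtered with filterByExpr, scaled by TMM and fitted over all 16 libraries with edgeR 4.0.16 (R 4.3.3; quasi-likelihood, robust, 1 coefficient per group). P-values were adjusted by Benjamini-Hochberg over 14553 genes, with a threshold of 0.05. CPM are counts scaled to a common library size after TMM. Shared sequence was measured as 50-base words that a mitochondrial gene has in common with the annotated transcripts of a nuclear gene. In an alternative fit the counts of all such nuclear genes were added to the mitochondrial gene before rounding. The other alternatives used DESeq2 1.42.0, limma 3.58.1 and the settings named in the closing section. Totals of 10940275 to 64789635 counts limit the precision of counting, while the spread between libraries sets the errors. The fit was checked on simulated counts. No 2 libraries of a group agreed within sampling noise. The members and lists of genes were chosen with earlier results of these data known. Beside all members, up to 2 called genes per direction with the lowest adjusted p were taken from each list of nuclear genes, plus Tfam, Polrmt, Lrpprc and Ppargc1a.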

Additional observations from a re-analysis of the deposited data

Results flagged for a closer look

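A search for a library far from the other 3 of its group covered 100 groups of values and found 3. Chance gives about 1 in 20. The mt-Nd2 gene had 454 CPM in room air replicate 4, against 1268 to 1413 CPM in the other room air libraries. The copy of mt-Co1 on chromosome 1, Gm29216, had 2391 CPM in the same library, against 4874 to 4950 CPM in the others. The mt-Nd3 gene had 867 CPM in overlap hypoxia replicate 3, against 180 to 273 CPM in the other overlap hypoxia libraries; that library has the fewest counts.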

How the results depend on the processing

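All values here count mitochondrial protein genes called, of 13. The share of all genes called is given in the sections above for some of these settings only. Where it is not given, a changed count cannot be set against the whole table. In intermittent hypoxia against room air 11 were called, 10 to 13 under the alternatives other than the share of nuclear ribosomal RNA as a covariate, with which 0 were, and 9 to 13 with 1 library left out, 9 being without intermittent hypoxia replicate 2. In intermittent against sustained hypoxia 13 were called, 0 with that covariate, and 13 to 13 with 1 library left out. In overlap hypoxia against room air 2 were called, and 0 without the filter on low counts, with only the groups compared, with the covariate or with copies summed, 1 with the replicate block, and 0 to 3 with 1 library left out. In overlap against intermittent hypoxia 0 were called, 4 by DESeq2, 2 with the replicate block, and 0 to 6 with 1 library left out. In overlap against sustained hypoxia 0 were called, 1 with upper-quartile scaling, 8 by DESeq2, 3 by limma-voom, and 0 to 6 with 1 library left out. In sustained hypoxia against room air and for the departure from additivity 0 were called under every alternative run. The fit of only the groups compared was not run for that departure, which needs all 4 groups. The cause of these differences was not tested. No called change reversed its sign.

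Replicate numbers are shared between groups, but libraries with the same number did not deviate together in every pair: correlations of their deviations ran from −0.103 to 0.183 over 24 pairs, with a median of 0.0365, against −0.02 over the 72 pairs of unlike number. Of the 16 libraries 8 correlated best with one of their own number, which 3 of the 12 libraries of other groups carry, a hint from the data and not from the design. With the replicate block 12 protein genes were called in intermittent hypoxia against room air and 13 in intermittent against sustained hypoxia. The share of all genes called with that block is not given here. No scaling moved the median of all genes by over 0.1 on the log2 scale.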
